A study of Mus musculus with 8 samples.

Results

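The CDK inhibitors of the CIP/KIP and INK4 families were followed across 3 sorted populations of mouse bone marrow stem and progenitor cells. The members were the 3 CIP/KIP genes Cdkn1a, Cdkn1b and Cdkn1c and the 4 INK4 genes Cdkn2a, Cdkn2b, Cdkn2c and Cdkn2d. They were found by symbol, each on the probe set annotated with that symbol alone, and were 7 of the 22180 genes named on the array. Each had 1 such probe set. All 7 were above the low-signal filter (a mean log2 signal of at least 3.88 over the arrays) and entered the tests, which covered 17576 genes.

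Cyclin-dependent kinases drive cells from G1 into DNA synthesis and mitosis, and these inhibitors hold them back. INK4 proteins bind CDK4 and CDK6 and keep D-type cyclins from activating them, whereas CIP/KIP proteins bind cyclin and kinase together and chiefly stop the CDK2 complexes. In bone marrow, long-term stem cells rarely divide, and loss of several of these inhibitors in mice is known to push stem cells into cycle or to exhaust them.

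The series was made to measure a chromatin remodeler, Chd7, across hematopoietic stem and progenitor cells, and holds 8 single-colour arrays of total RNA from C57/Bl6 bone marrow, with an age of 8 weeks in the labels. LT-HSC are the long-term stem cells, sorted for 2 arrays (numbered 1 and 3) as CD48-CD150+CD34-Lin-Sca1+Kit+. ST-HSC are the short-term stem cells (3 arrays), which carried CD34 and otherwise had the LT-HSC gate, and multipotent progenitors (MPP, 3 arrays) came from the same Lin-Sca1+Kit+ fraction with the gate CD48+CD150-CD34+. No genotype other than the strain is given. Each array's description says no treatment, but the treatment protocol shared by all arrays describes 2 hours in DMSO, 1 year in primary recipients and 3 months in secondary recipients, so the history of the cells is not settled. Nothing in the labels says that replicates came from separate animals, and the p-values therefore measure how far these samples differ, perhaps for technical reasons.

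Values are log2 RMA signals. Differences are between log2 means, with the standard error (SE) of a limma model over all 8 arrays, and a gene was called when its Benjamini-Hochberg adjusted p over the 17576 genes was under 0.05. Slamf1, which encodes CD150, followed the gate: it was 7.77 and 7.78 in LT-HSC, 7.25 to 7.46 in ST-HSC and 4.77 to 5.46 in MPP. Cd34 did not follow it for LT-HSC, with 8.50 and 10.20 there, 9.55 to 10.15 in ST-HSC and 10.85 or more in MPP. Cd48 was 5.92 and 6.63 in LT-HSC and 6.65 to 7.84 in MPP, with little room between the nearest arrays. That difference of 0.87 was not called (limma adjusted p = 0.461), and ST-HSC (6.50 to 7.49) overlapped both. The first replicates of LT-HSC and ST-HSC correlated least with the remaining arrays (median r of 0.956 and 0.968, against 0.976 to 0.985). LT-HSC replicate 1 also had the narrowest spread of signals (interquartile range 2.49, against 2.73 to 3.06 on the other arrays). It is 1 of 2 LT-HSC arrays, so every difference from LT-HSC carries this limit. Fits without it, given below among the alternatives, rest on LT-HSC replicate 3 alone, and its part in those differences was not tested otherwise. The mean signal of 18 granulocyte and monocyte genes was also highest in replicate 1 of each population (6.86, 7.18 and 6.67, against 5.24 to 5.79 on the other 5 arrays). The mean of the B cell list was 4.69 to 5.20 and that of the T and NK cell list 4.64 to 4.87. Signals averaged above 5.20, the 95th percentile of 1394 olfactory and vomeronasal receptor genes, for 5 of 10 genes in the former list and 1 of 11 in the latter. The brightest, Cd79b (7.13 to 8.08), a part of the B cell receptor, and Nkg7 (8.10 to 9.59), a cytotoxic granule gene, were above it on all arrays. Centring every array on its own median would raise ST-HSC minus LT-HSC differences by 0.111 and MPP minus LT-HSC differences by 0.123, so small differences from LT-HSC rest on the scaling.

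RefSeq start sites matched 6 of the 7 members, in 9 windows on GRCm38.p6. The 2 windows shown belong to the members on which the results turn, Cdkn2c and Cdkn1a. Each runs over the 250 bases before a start site, 5′ to 3′. For the more upstream of the 2 Cdkn2c starts (chr4:109666757-109667006, minus strand), capitals mark a form of the E2F motif. For the more upstream of the 2 Cdkn1a starts (chr17:29090729-29090978, plus strand), capitals mark a p53 motif, here CATG, any 6 bases and CATG again.
Cdkn2c: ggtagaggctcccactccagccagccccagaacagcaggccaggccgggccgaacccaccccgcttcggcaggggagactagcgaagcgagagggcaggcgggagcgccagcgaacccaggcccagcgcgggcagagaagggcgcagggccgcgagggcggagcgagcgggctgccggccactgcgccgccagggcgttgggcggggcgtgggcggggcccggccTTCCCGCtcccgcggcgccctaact
Cdkn1a: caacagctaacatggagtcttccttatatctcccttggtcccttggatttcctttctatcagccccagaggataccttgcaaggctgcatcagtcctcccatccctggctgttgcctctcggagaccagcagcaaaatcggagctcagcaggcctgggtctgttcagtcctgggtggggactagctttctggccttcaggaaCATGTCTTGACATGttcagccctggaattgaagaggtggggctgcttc

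Letters of the E2F motif were searched on both strands in 4 forms, of which TTCCCGC was the form found in members, beside the forms with TTCGCGC letters, with TTGCCGC letters and with TTGGCGC letters. The match began 25 bases before 1 of the 2 Cdkn2c starts, and any of the 4 forms occurred in 7.89% of 32851 windows of this length. The other member with a match was Cdkn2a, 98 bases before 1 of its 2 starts. The p53 letters began 48 bases before the more upstream of the 2 Cdkn1a starts and occurred in 0.49% of windows. The Cdkn2c window shown held 77.2% G and C and had 3 GC boxes (GGGCGG on either strand, found in 32.7% of windows). The window of its other start (chr4:109665373-109665622) held 42.8% G and C, with 0 GC boxes and 0 E2F matches. The window of the other Cdkn1a start (chr17:29093519-29093768) held 64.8% G and C, with 2 GC boxes and 0 p53 matches. Such matches describe the letters and not binding.

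Among the INK4 genes, Cdkn2c alone was called, and only between ST-HSC and LT-HSC, close to the threshold. It encodes p18, an inhibitor of CDK4 and CDK6 whose loss is known to enlarge the stem cell pool of mice. Its log2 signal was 5.35 and 6.03 in LT-HSC, 6.77, 6.86 and 7.48 in ST-HSC, and 6.61, 6.24 and 6.69 in MPP. The lowest, 5.35 in LT-HSC replicate 1, was little above 5.20, the 95th percentile of the receptor genes. Both LT-HSC arrays were below every other array, and all ST-HSC arrays were above all MPP arrays. Of all genes, 23.3% had no overlap between ST-HSC and LT-HSC arrays, 24.7% between MPP and LT-HSC and 14.2% between MPP and ST-HSC. Averages were 5.69 ± 0.48 for LT-HSC (SD, n = 2), 7.04 ± 0.38 for ST-HSC (SD, n = 3) and 6.51 ± 0.24 for MPP (SD, n = 3).

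The log2 difference of Cdkn2c, ST-HSC over LT-HSC, was 1.35 (SE 0.27, 95% interval 0.75 to 1.94), or 2.54-fold, and passed at a limma adjusted p of 0.0468. It was the only member called in this comparison, 1 of 7, where 0.933% of all genes tested were called and 0.848% were called higher. Within replicates 1 and 3 the differences were 1.43 and 1.45. RNA of a sorted population does not tell fewer cells with a transcript from less transcript per cell. The call was close to the threshold: over 17 alternatives the difference stayed between 1.01 and 1.69, the limma adjusted p ran from 0.00131 to 0.398, and the call held in 6 and was lost in 11. Leaving out LT-HSC replicate 1 gave 0.398, ST-HSC replicates 1, 2 and 3 gave 0.0551, 0.093 and 0.17, and MPP replicates 1 and 3 gave 0.0706 and 0.0948.

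The other comparisons of Cdkn2c did not pass. MPP minus LT-HSC was 0.82 (SE 0.27; limma adjusted p = 0.342), and MPP minus ST-HSC was -0.52 (SE 0.24; limma adjusted p = 0.739). Arrays did not overlap in either, as for 24.7% and 14.2% of all genes. The F test over all 3 populations gave a limma adjusted p of 0.0957, which became 0.00346 with the replicate number as a block and 0.042 without LT-HSC replicate 3, within a range of 0.00346 to 0.385 over its alternatives. No member passed that test, in which 0.905% of genes did, and 3 (Cdkn1b, Cdkn1c and Cdkn2c) had an unadjusted p under 0.05. By its mean, ST-HSC was the highest population for Cdkn2c and LT-HSC the lowest, and MPP differed from neither beyond the threshold.

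**Figure D1:**
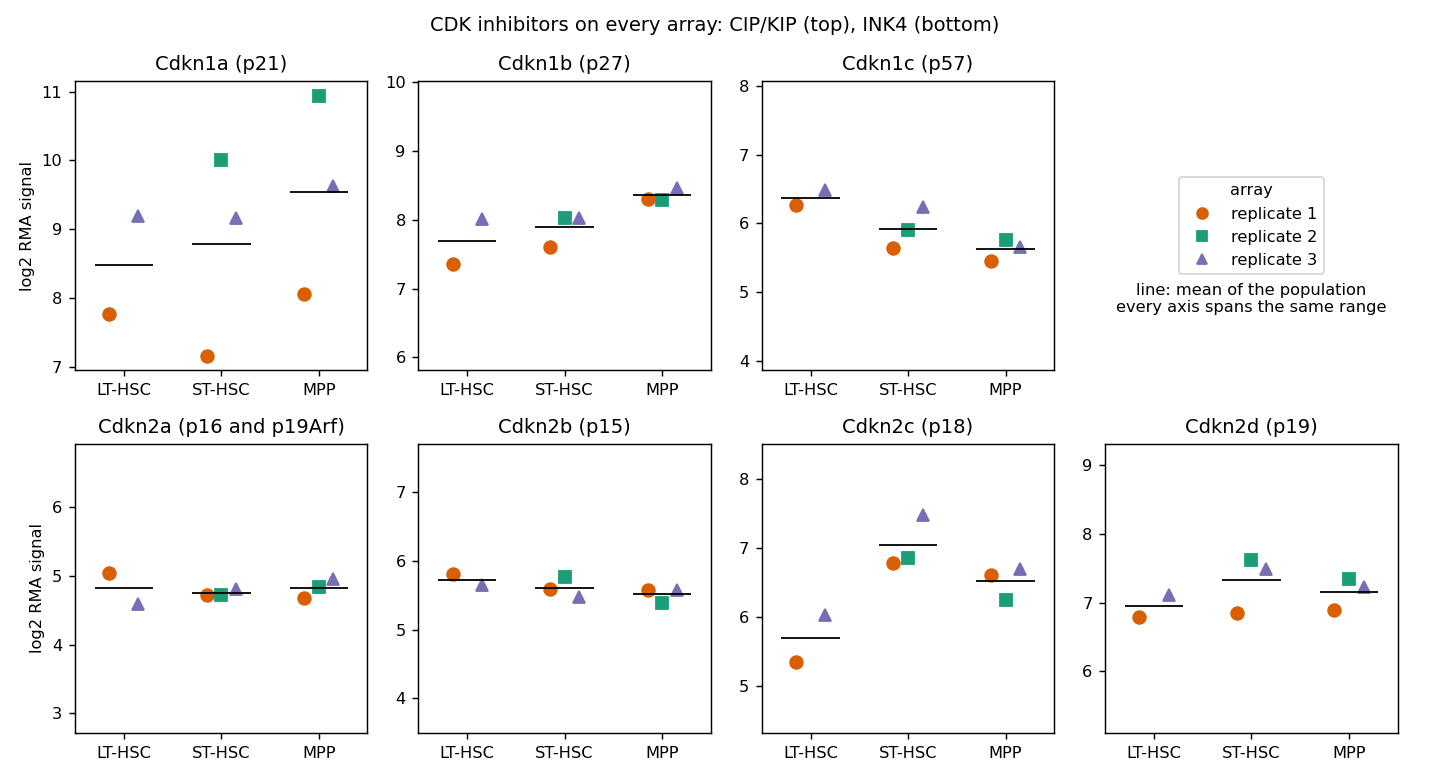
Log2 RMA signal (vertical axes, all of the same span) of each CDK inhibitor on the 8 arrays, by population, with the shape and colour giving the replicate number and the line the population mean. Cdkn2c was lowest on the LT-HSC arrays (5.35 and 6.03), whereas Cdkn1a separated by replicate number, with replicate 2 highest in ST-HSC and MPP (10.01 and 10.94).

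Cdkn2c ordered the arrays much as a list of 37 tested proliferation genes did. The mean log2 signal of that list was 7.04 and 7.29 in LT-HSC, 8.61, 8.39 and 8.58 in ST-HSC, and 8.13, 7.45 and 7.75 in MPP. Again LT-HSC was lowest and ST-HSC highest, without overlap. For this list, which was chosen with its result known, 25 genes were called higher in ST-HSC than in LT-HSC and none lower, with a median difference of 1.42 against 0.02 over all genes, of which 0.848% were called higher. They included the kinetochore genes Nuf2 (2.12, limma adjusted p = 0.00574) and Ndc80 (2.01, limma adjusted p = 0.00426), the checkpoint kinase gene Bub1 (2.09, limma adjusted p = 0.0043) and the mitotic motor gene Kif15 (2.01, limma adjusted p = 0.00574).

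The count of 25 fell to 10 without ST-HSC replicate 3 and to 12 with array weights. Calls over all genes fell there from 164 to 53 and 61. Few or none of the 25 stayed called without LT-HSC replicate 1, alone or together with ST-HSC replicate 1. These fits left 1 LT-HSC array, and calls over all genes were few or none as well. No gene of the list was called for MPP against either stem cell population. However, 26 and 31 had an unadjusted p under 0.05, where 10.6% and 6.89% of all genes did. The median differences were 0.60 from LT-HSC and -0.83 from ST-HSC. With the replicate number as a block, 18 were called lower in MPP than in ST-HSC and 5 higher in MPP than in LT-HSC. Over all genes 267 and 157 were called there, in either direction. Array weights gave 21 lower in MPP than in ST-HSC, where 525 of all genes were called. Without LT-HSC replicate 3, which left 1 LT-HSC array, some were called higher in MPP than in LT-HSC, and calls over all genes rose as well. Megakaryocyte and platelet markers, at 6.35 to 6.65 in LT-HSC and 6.64 to 7.40 in ST-HSC, overlapped by the lowest ST-HSC array alone. Among them, Itga2b was called higher in ST-HSC than in LT-HSC (1.18, limma adjusted p = 0.00814), and Vwf alone was lower (-0.75, not called). None was higher in MPP than in ST-HSC. Called lower there were Itga2b (-1.17, limma adjusted p = 0.0141) and Pf4 (-2, limma adjusted p = 0.034). Of all genes, 0.848% were called higher in the first comparison and 0.125% lower in the second. Granulocyte and monocyte markers overlapped (5.24 to 6.86 and 5.39 to 7.18). Stromal and endothelial markers and erythroid markers overlapped as well, but both were highest in ST-HSC replicate 1 (1.28 and 1.01 above their mean over the arrays). Without that array the Cdkn2c difference was 1.48 (limma adjusted p = 0.0551). The part of these markers in the Cdkn2c difference was not tested. The sliding clamp gene Pcna had the highest signal of the genes not called (0.42 above LT-HSC in ST-HSC, limma adjusted p = 0.423).

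**Figure D2:**
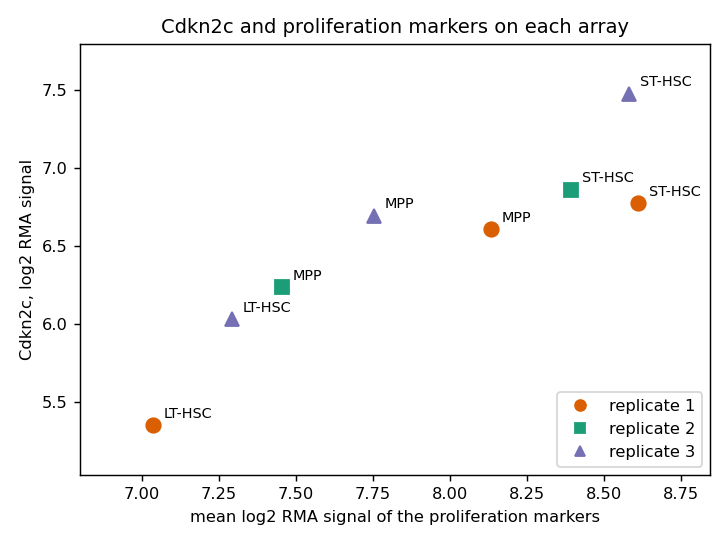
Cdkn2c log2 RMA signal (vertical axis) against the mean log2 RMA signal of 37 proliferation genes (horizontal axis), 1 point per array, labelled by population and shaped by replicate number. The LT-HSC arrays lie at the lower left (5.35 and 6.03 for Cdkn2c) and the ST-HSC arrays at the upper right (6.77 to 7.48), with MPP between.

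Of all 14863 candidate genes, those with the highest Pearson correlation to Cdkn2c over the 8 arrays were Sf3a1, a splicing factor (r = 0.985), Wdr76 (r = 0.983) and Ect2, which is needed for cytokinesis (r = 0.981). These correlations describe 8 arrays that share populations and replicate numbers.

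Cdkn2d encodes p19INK4d, a further inhibitor of CDK4 and CDK6. Its log2 signal was 6.79 and 7.11 in LT-HSC, 6.85, 7.62 and 7.49 in ST-HSC, and 6.89, 7.34 and 7.23 in MPP. All populations overlapped, and replicate 1 was the lowest array of each. ST-HSC minus LT-HSC was 0.37 (SE 0.25), MPP minus LT-HSC 0.20 (SE 0.25) and MPP minus ST-HSC -0.17 (SE 0.22), at limma adjusted p of 0.616, 0.759 and 0.999. The 95% interval of the first, -0.18 to 0.92, leaves room for a difference of either sign. Efhd2 (r = 0.974), the protocadherin gene Pcdh7 (r = 0.974) and Ppp1r11 (r = 0.965) were most like it.

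Cdkn2b encodes p15, an INK4 protein known as a target of TGF-beta signalling. It was 5.81 and 5.64 in LT-HSC, 5.59, 5.77 and 5.47 in ST-HSC, and 5.57, 5.39 and 5.57 in MPP. These values were all little above 5.20, the 95th percentile of the receptor genes. The LT-HSC arrays were above all MPP arrays, while ST-HSC overlapped both. MPP minus LT-HSC was -0.21 (SE 0.17, 95% interval -0.59 to 0.17; limma adjusted p = 0.634), and ST-HSC minus LT-HSC was -0.11 (SE 0.17; limma adjusted p = 0.845). MPP minus ST-HSC was -0.10 (SE 0.15; limma adjusted p = 0.999). Its closest genes were Smim18 (r = 0.979), the nucleotide receptor gene P2ry13 (r = 0.947) and Cd55b (r = 0.935).

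Cdkn2a encodes both p16, an INK4 protein, and p19Arf, which shields p53 from Mdm2, and the probe set does not separate these products. Its log2 signal was 5.05 and 4.59 in LT-HSC, 4.72, 4.71 and 4.80 in ST-HSC, and 4.68, 4.83 and 4.96 in MPP. The LT-HSC pair spanned all other arrays. On all 8 arrays it was under 5.20, the 95th percentile of the receptor genes, whose median was 3.31. Probe sets differ in brightness, so this places the signal in the range of genes with no known role in marrow and gives no amount of transcript. The differences were -0.07 (SE 0.19), 0.01 (SE 0.19) and 0.08 (SE 0.17), with limma adjusted p from 0.921 to 0.999, and the first became 0.04 under quantile normalization and under median centring. The genes most like it were Fbxo2 (r = 0.994), Acbd7 (r = 0.954) and Myzap (r = 0.948).

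The polycomb and other repressors known to silence the Cdkn2a locus were compared as a list. None of 26 tested was called in any comparison, where the shares of all genes called were 0.933% (ST-HSC minus LT-HSC), 0.125% (MPP minus LT-HSC) and 0.193% (MPP minus ST-HSC). Their medians were 0.10, 0.26 and 0.09, against 0.02, 0.06 and 0.01 over all genes. The brightest was Ezh2, the polycomb methyltransferase gene, at 1.11, 0.73 and -0.38 in the same order (limma adjusted p = 0.073, 0.357 and 0.892). At an unadjusted p under 0.05 there were 5, 4 and 1, where 11.1%, 10.6% and 6.89% of all genes passed. The block gave 1 call above LT-HSC for ST-HSC, where 473 of all genes were called. Leaving out LT-HSC replicate 3 gave calls above LT-HSC for ST-HSC and MPP. That fit had 1 LT-HSC array, and calls over all genes rose in it as well.

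Among the CIP/KIP genes, Cdkn1c and Cdkn1b ran in opposite directions over the 3 populations, and neither was called over all genes. Cdkn1c encodes p57, an imprinted gene expressed from the maternal allele and known to be needed for stem cell quiescence. Its log2 signal was 6.26 and 6.49 in LT-HSC, 5.64, 5.91 and 6.23 in ST-HSC, and 5.45, 5.76 and 5.66 in MPP. The MPP values were little above 5.20, the 95th percentile of the receptor genes. The LT-HSC arrays were above all others, the nearest being ST-HSC replicate 3, and ST-HSC and MPP overlapped. Averages were 6.37 ± 0.16 for LT-HSC (SD, n = 2), 5.93 ± 0.30 for ST-HSC (SD, n = 3) and 5.62 ± 0.16 for MPP (SD, n = 3).

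MPP minus LT-HSC for Cdkn1c was -0.75 (SE 0.21, 95% interval -1.21 to -0.30), with an unadjusted p of 0.00401 and a limma adjusted p of 0.244. It was -0.81 and -0.83 within replicates 1 and 3, and -0.86 to -0.63 over 17 alternatives, with limma adjusted p from 0.0852 to 0.679. ST-HSC minus LT-HSC was -0.45 (SE 0.21; limma adjusted p = 0.46), and MPP minus ST-HSC was -0.30 (SE 0.19; limma adjusted p = 0.923). Neighbours in the order LT-HSC, ST-HSC, MPP thus did not differ beyond the threshold. Tcte2 (r = 0.985), the serpin gene Serpinb6a (r = 0.977) and the progesterone receptor gene Pgr (r = 0.974) were most like Cdkn1c.

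Imprinted genes near Cdkn1c and in the imprinted network, a list chosen with earlier results of these data known, gave 27 tested genes. Of these, 2 were called lower in ST-HSC than in LT-HSC and 2 lower in MPP than in LT-HSC, with no call in the other direction, where 0.0853% and 0.119% of all genes were called lower. In MPP minus ST-HSC none was called and 3 had an unadjusted p under 0.05, where 6.89% of all genes did. In both comparisons with LT-HSC the called genes were Meg3 and Rian, noncoding RNA genes of the Dlk1 imprinted cluster. Meg3 was 6.84 and 6.96 in LT-HSC, 5.35 to 5.44 in ST-HSC and 4.78 to 5.26 in MPP. Its differences from LT-HSC were -1.505 (limma adjusted p = 0.00574) for ST-HSC and -1.88 (limma adjusted p = 0.00249) for MPP. Rian differed by -1.12 (limma adjusted p = 0.0341) and -1.34 (limma adjusted p = 0.0438). Its signal was 6.01 and 5.31 in LT-HSC, 4.42 to 4.60 in ST-HSC and 4.27 to 4.355 in MPP. All ST-HSC and MPP arrays of Rian were thus under 5.20, the 95th percentile of the receptor genes. So was Meg3 on MPP replicates 1 and 3 (4.78 and 5.03).

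For ST-HSC only 1 call was left when any 1 of the ST-HSC arrays or MPP replicate 1 or 3 was left out. Over all genes 53 to 163 were called there, against 164 in the main fit. For MPP the count became 1 without ST-HSC replicate 2 or 3 or any 1 of the MPP arrays, and 4 with the block. Over all genes the count of 22 became 6 to 16 and 157 there. Both counts were also 1 with the filter at the 50th percentile, median centring, array weights or only the 2 groups compared. Leaving out LT-HSC replicate 1, alone or with ST-HSC replicate 1, also lowered both counts, with 1 LT-HSC array left. For MPP minus ST-HSC, array weights and the block each gave 1 lower. Cd81, a tetraspanin gene of the Cdkn1c domain and the brightest of the list's genes not called, had differences of -0.12, 0.03 and 0.15. The list's median was -0.05 for ST-HSC and -0.01 for MPP against LT-HSC, and median centring turned both positive (0.06 and 0.12).

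Cdkn1b encodes p27, which binds cyclin E with CDK2 and is known to accumulate in cells that leave the cycle. Its log2 signal was 7.36 and 8.01 in LT-HSC, 7.61, 8.03 and 8.03 in ST-HSC, and 8.31, 8.28 and 8.47 in MPP. All MPP arrays were above every stem cell array, whereas LT-HSC and ST-HSC overlapped. Averages were 7.68 ± 0.46 for LT-HSC (SD, n = 2), 7.89 ± 0.24 for ST-HSC (SD, n = 3) and 8.35 ± 0.10 for MPP (SD, n = 3).

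For Cdkn1b, MPP minus LT-HSC was 0.67 (SE 0.22, 95% interval 0.17 to 1.16), with an unadjusted p of 0.0126 and a limma adjusted p of 0.357. The latter ran from 0.0489 to 1 over 17 alternatives, and the gene was called only without LT-HSC replicate 3, where LT-HSC was represented by replicate 1 alone, assumed to vary like the others. MPP minus ST-HSC was 0.46 (SE 0.20; limma adjusted p = 0.686), and ST-HSC minus LT-HSC was 0.20 (SE 0.22; limma adjusted p = 0.768). The phosphatase gene Ptpre (r = 0.992), Plekha2 (r = 0.992) and the interferon receptor gene Ifnar2 (r = 0.987) were most like it.

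**Figure D3:**
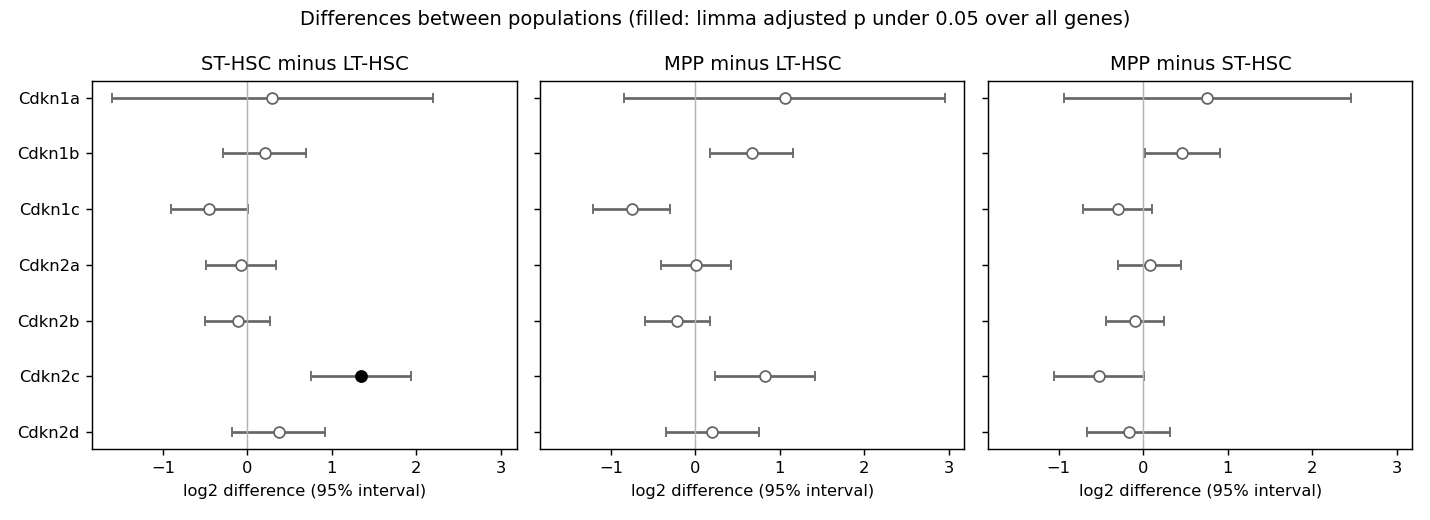
Log2 difference between populations (horizontal axes) for each CDK inhibitor, with its 95% interval from limma, in 3 panels for the 3 comparisons, filled where the adjusted p over all genes was under 0.05. Cdkn2c in ST-HSC minus LT-HSC (1.35) is the 1 filled point, and Cdkn1a has the widest intervals (-1.61 to 2.20 in the same panel).

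Counted together, 4 of the 7 members were positive in ST-HSC minus LT-HSC, 5 in MPP minus LT-HSC and 3 in MPP minus ST-HSC. The 2 families did not split by direction. Their medians were 0.20, 0.20 and -0.10, against 0.02, 0.06 and 0.01 over all genes tested. The first of these medians moved from -0.0654 with the replicate block to 0.53 without LT-HSC replicate 3, and was also below 0 without LT-HSC replicate 1 (-0.0311) and without ST-HSC replicate 2 (-0.0544). It was 0.0487 under quantile normalization and 0.32 under median centring. Over its alternatives the second ran from 0.0784 with the block to 0.43 with the filter at the 50th percentile, which removes Cdkn2a, and the third from -0.13 with that filter to -0.0177 without ST-HSC replicate 2. For MPP minus LT-HSC no member was called, where 0.125% of genes were (0.00569% higher and 0.119% lower), and 3 had an unadjusted p under 0.05 (Cdkn1b, Cdkn1c and Cdkn2c), where 10.6% of genes did. Arrays did not overlap for 4 members, against 24.7% of genes. For MPP minus ST-HSC no member was called, where 0.193% of genes were (0.0683% higher and 0.125% lower), and 1 (Cdkn1b) had an unadjusted p under 0.05, where 6.89% did. Arrays did not overlap for 2 members in that comparison and for 2 in ST-HSC minus LT-HSC, against 14.2% and 23.3% of genes.

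Cdkn1a encodes p21, the CIP/KIP inhibitor best known as a p53 target and a gene that responds quickly to stress. Its log2 signal was 7.77 and 9.20 in LT-HSC, 7.17, 10.01 and 9.17 in ST-HSC, and 8.06, 10.94 and 9.62 in MPP. Replicate 1 was the lowest array of every population and replicate 2 the highest where there was one, and the populations overlapped throughout. Over the 8 arrays the range was 3.78, and the averages were 8.49 ± 1.01 for LT-HSC (SD, n = 2), 8.78 ± 1.46 for ST-HSC (SD, n = 3) and 9.54 ± 1.44 for MPP (SD, n = 3).

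No comparison between populations passed for Cdkn1a. ST-HSC minus LT-HSC was 0.30 (SE 0.86; limma adjusted p = 0.929), MPP minus LT-HSC was 1.06 (SE 0.86; limma adjusted p = 0.635) and MPP minus ST-HSC was 0.76 (SE 0.77; limma adjusted p = 0.999). LT-HSC had no replicate 2 array, which was the highest elsewhere. Within replicates 1, 2 and 3, MPP exceeded ST-HSC by 0.89, 0.93 and 0.46. With the replicate number as a block the difference was again 0.76, now at a limma adjusted p of 0.0492, in a range of 0.0489 to 1 over 18 alternatives, and it was -0.05 without ST-HSC replicate 1, 0.06 without MPP replicate 2 and 1.501 without MPP replicate 1. ST-HSC minus LT-HSC turned to -0.36 with the block. MPP minus LT-HSC fell to 0.40 with it (limma adjusted p = 0.403) and was 0.29 and 0.43 within replicates 1 and 3.

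A test of the replicate number itself, with population in the model, was added after these values had been seen. Cdkn1a had the fourth smallest p of the 17576 genes, with a limma adjusted p of 1.68e-05, against 1.21% of genes called. Over 14 alternatives it ran from 1.96e-15 to 0.00739, so each of them kept the call. With ST-HSC and MPP alone it was 0.000558. Replicate number, given population, took 84.9% of the sum of squares of Cdkn1a and population 14.1%. For Cdkn2d these shares were 68.8% and 24.9%, with a limma adjusted p of 0.31 for the replicate number. Population took the larger share for Cdkn2c (77.2%), Cdkn1c (73.0%) and Cdkn1b (63.7%), while 49.3% for Cdkn2b and 92.4% for Cdkn2a belonged to neither. The median over all genes of the share between populations was 30.3%. That of the share between replicate numbers was not computed, so 84.9% and 68.8% have no such reference.

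**Figure D4:**
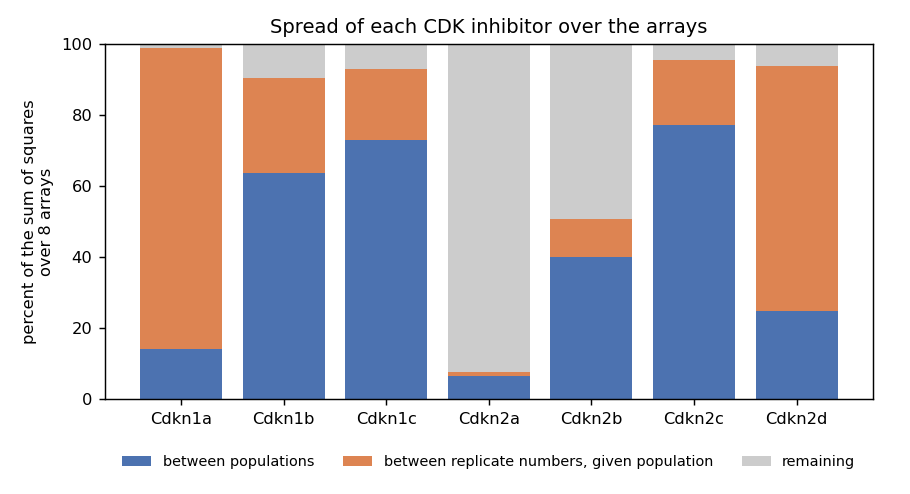
Percent of each CDK inhibitor's sum of squares over the 8 arrays (vertical axis) that lay between populations, between replicate numbers given population, and in the remainder. Replicate number takes 84.9% for Cdkn1a and 68.8% for Cdkn2d, whereas population takes 77.2% for Cdkn2c.

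The genes ahead of Cdkn1a in the replicate number test were the heat shock gene Hspa1b, the stress gene Gadd45b and the transcription factor gene Bhlhe40, and the chemokine gene Cxcl2 came next. Gadd45b was also the gene most like Cdkn1a over the arrays (r = 0.991), followed by Bambi (r = 0.986) and the adhesion molecule gene Icam1 (r = 0.986). Gadd45b was 6.52 and 8.04 in LT-HSC, 5.71, 9.21 and 8.37 in ST-HSC, and 6.32, 10.13 and 8.60 in MPP. It too was lowest in replicate 1 and highest in replicate 2.

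None of 25 tested p53 target and pathway genes was called between populations, and 1, 1 and 5 had an unadjusted p under 0.05 in ST-HSC minus LT-HSC, MPP minus LT-HSC and MPP minus ST-HSC. These are 4%, 4% and 20% of the list, where 11.1%, 10.6% and 6.89% of all genes passed. In the replicate number test, which called 1.21% of all genes, 2 were called, the kinase gene Plk2 (limma adjusted p = 0.0013) and Btg2 (limma adjusted p = 0.0448), an antiproliferative gene and the brightest of the list. Plk2 was 7.08 and 8.43 in LT-HSC, 6.46, 8.41 and 7.69 in ST-HSC, and 7.43, 9.08 and 7.86 in MPP. Of 30 tested regulators of CDK inhibitor transcription, none was called between populations and 4 were called by replicate number. At an unadjusted p under 0.05 there were 5, 5 and 4, or 16.7%, 16.7% and 13.3% of the list, against the same shares of all genes. Those called by replicate number were Hes1, a Notch target (limma adjusted p = 0.000965), Smad7, an inhibitor of TGF-beta signalling (limma adjusted p = 0.00197), Nr4a1, an immediate early nuclear receptor gene (limma adjusted p = 0.00278), and Klf4 (limma adjusted p = 0.00946). Nr4a1, the brightest of that list, had population differences of -0.53, 0.06 and 0.60. In ST-HSC minus LT-HSC, the block gave 1 p53 gene higher and 2 regulators lower, where 473 of all genes were called. Leaving out LT-HSC replicate 3, which left 1 LT-HSC array, gave calls higher in both lists and more calls over all genes. It also gave regulators above LT-HSC in MPP. Leaving out ST-HSC replicate 1 gave 1 regulator below ST-HSC in MPP, where 19 of all genes were called. The block gave 1 p53 gene above and 1 regulator below ST-HSC in MPP, where 267 of all genes were called. With array weights, 3 p53 genes and 2 regulators were called above ST-HSC in MPP and 1 of each list below, where 525 of all genes were called. Among the INK4 repressors, Id1 was called by replicate number (limma adjusted p = 0.00319).

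**Figure D5:**
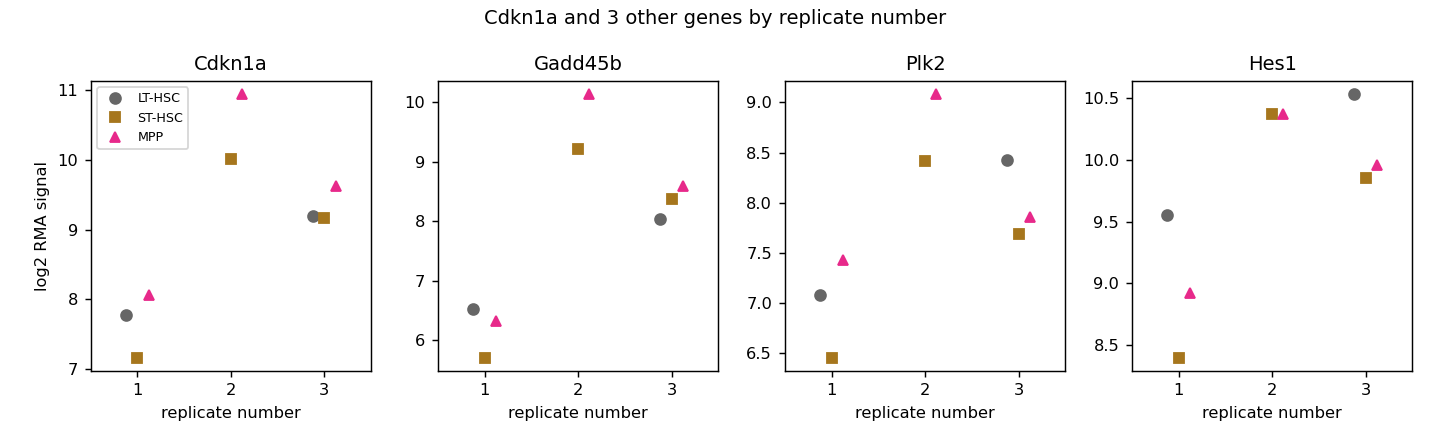
Log2 RMA signal (vertical axes, each with its own range) of Cdkn1a, Gadd45b, Plk2 and Hes1 by replicate number (horizontal axes), with the marker giving the population. Replicate 1 is the lowest array of each population in all 4 panels, with Cdkn1a at 7.17 to 8.06 there, and LT-HSC has no replicate 2.

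Cdkn1a had replicate 1 below 3 below 2 in ST-HSC and MPP and 1 below 3 in LT-HSC. This order was read from the values of Cdkn1a, so its own match was given in advance. It was shared by 4.11% of all genes, by Cdkn2d and by no other member. Granulocyte and monocyte markers ran the other way: relative to their mean over the arrays they were 0.80, 1.11 and 0.61 in replicate 1 (LT-HSC, ST-HSC, MPP) and -0.83 to -0.27 on the other arrays. Of 18 tested, 11 were called by replicate number, and 12 had a mean above the 95th percentile of the receptor genes. Erythroid markers (3 of 6 tested) and stromal and endothelial markers (3 of 12) were called too, against 1.21% of all genes. None of the B cell, T and NK cell, megakaryocyte or HSC identity genes was. On the same relative scale, erythroid markers were 0.235, 1.01 and 0.50 in replicate 1 and -0.61 to -0.12 on the other arrays. Stromal and endothelial markers were 0.18, 1.28 and 0.27 in replicate 1 and -0.41 to -0.21 on the other arrays. Both were highest in ST-HSC replicate 1. Their part in the Cdkn1a values was not tested.

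The partners of these inhibitors were compared last, and this list and the next were chosen with earlier results of these data known. Of 28 tested cyclin, CDK, pocket protein and E2F genes, 3 were called higher in ST-HSC than in LT-HSC and none lower, with a median difference of 0.56, where 0.848% of all genes were called higher. They were the mitotic genes Ccnb2 (1.80, limma adjusted p = 0.00648), Cdk1 (1.74, limma adjusted p = 0.00687) and Ccna2 (1.42, limma adjusted p = 0.0365), which are also in the proliferation list. The INK4 targets Cdk4 and Cdk6 had 0.71 (limma adjusted p = 0.191) and 1.19 (limma adjusted p = 0.132). Array weights took the 3 calls to 1 and the block took them to 6, where calls over all genes went from 164 to 61 and 473. With 1 LT-HSC array the calls were lost (without replicate 1) or rose (without replicate 3), as calls over all genes fell or rose. In MPP no gene of the list was called against either stem cell population, and 6 had an unadjusted p under 0.05 in each case (21.4%), where 10.6% and 6.89% of all genes did. For MPP the block gave 1 call above LT-HSC and 3 below ST-HSC, where 157 and 267 of all genes were called. Array weights gave 3 below ST-HSC, where 525 of all genes were called. Leaving out LT-HSC replicate 3, which left 1 LT-HSC array, gave calls above LT-HSC and more calls over all genes.

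Of 21 tested genes for CIP/KIP turnover and localisation, 2 were called higher in ST-HSC than in LT-HSC and none lower, where 0.848% of all genes were called higher. None was called in MPP. There 7 (33.3%, against LT-HSC) and 2 (9.52%, against ST-HSC) had an unadjusted p under 0.05, beside 10.6% and 6.89% of all genes. The 2 called are mitotic genes as well: Cdc20, an activator of the anaphase-promoting ubiquitin ligase (1.60, limma adjusted p = 0.00735), and Cks2, a small CDK-binding protein (1.23, limma adjusted p = 0.0139). The median was 0.34, and 21 of 21 genes were above 0, or 18 under quantile normalization. Skp2, the F-box protein that marks p27 for destruction, had 0.89 (limma adjusted p = 0.357). Ppp2ca, a phosphatase subunit gene and the brightest not called, had 0.31 (limma adjusted p = 0.612). Leaving out ST-HSC replicate 2 or 3 took the 2 calls to 1, and the block took them to 4. Calls over all genes went there from 164 to 94, 53 and 473. With 1 LT-HSC array the calls were lost (without replicate 1) or rose (without replicate 3), as calls over all genes fell or rose. In MPP, 1 was called below ST-HSC with the block and 2 with array weights, where 267 and 525 of all genes were called. Leaving out LT-HSC replicate 3 also gave calls above LT-HSC in MPP.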

How the data were processed

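Arrays of 1 colour measured amplified, biotin-labelled total RNA, per the labels' protocols. Signals were made with RMA, per the submitters' processing notes; its version and the genome build are not given in the sources used here. Values that the authors deposited were read as log2 values for 33649 probe sets on 8 arrays, a scale taken from its values. Only few arrays limit the precision, and amplification can add spread between them.

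Of the probe sets, 23521 had 1 symbol in the platform annotation, 1814 had several and 8314 none. Genes were represented by the probe set with the highest mean and tested above the 25th percentile of probe set means (log2 3.88). A mean per population was fitted to all 8 arrays in limma 3.58.1 under R 4.3.3 (5 residual and 5.93 prior degrees of freedom), with Benjamini-Hochberg adjustment over 17576 genes. The script was checked on simulated data.

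The members and the lists were chosen with earlier results of these data known. Named genes were all members, up to 4 called genes and the brightest gene not called of each list, and the 3 genes most correlated with each member, leaving out predicted genes, clones, small RNAs, sensory receptors and antigen receptor segments. Cdk4, Cdk6, Skp2, Cd79b, Nkg7, Itga2b, Vwf, Pf4, Gadd45b's neighbours in the replicate number test and the genes called in it were named after their values were seen. Of 321 list entries, 288 matched a gene, Skp1a and Mirk through their current symbols.

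Arrays of ST-HSC and MPP with the same replicate number deviated together from their group means (correlations 0.15, 0.23 and 0.21 for replicates 1, 2 and 3). Arrays with different numbers gave -0.28 to 0.069. The fit behind the main results did not pair the arrays. Replicate number entered only as the block among the alternatives and in the replicate number test. The labels state no pairing. Alternatives covered the filter, the scaling, the probe set rule, array weights, the block, the arrays fitted and each array left out.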

Additional observations from a re-analysis of the deposited data

How the results depend on the processing

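The 7 members gave 35 results (3 contrasts, the F test and the replicate number test each), and over their alternatives 540 values kept direction and side of the threshold, 11 lost a call, 5 gained one and 13 changed sign. The causes were not tested. For ST-HSC minus LT-HSC the number of members called, 1, became 0 with no filter, with median centring, with array weights, with only the 2 groups compared and without LT-HSC and ST-HSC replicate 1 together, and was 0 to 1 with each array left out in turn. The limma adjusted p of Cdkn2c in the first 5 was 0.0651, 0.0993, 0.183, 0.117 and 0.282. For MPP minus LT-HSC the number called, 0, was 0 to 1 with arrays left out. For MPP minus ST-HSC it became 1 with the replicate block, in all arrays or in these 2 groups alone, and was 0 with each array left out in turn. For the F test it became 1 with the replicate block and was 0 to 1 with arrays left out. The replicate block changed no member call other than Cdkn1a in MPP minus ST-HSC and Cdkn2c in the F test.

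Sign changes, none of them of a called value, were as follows. ST-HSC minus LT-HSC of Cdkn2a became 0.04 with quantile normalization (0.0419) and median centring (0.0398), 0.17 without LT-HSC and ST-HSC replicate 1 together and 0.16 without LT-HSC replicate 1. That of Cdkn1a became -0.36 with the replicate block, -0.42 without LT-HSC replicate 1 and -0.32 without ST-HSC replicate 2, and that of Cdkn1b became -0.12 without LT-HSC replicate 1. MPP minus ST-HSC of Cdkn1a became -0.0492 without ST-HSC replicate 1, alone or with LT-HSC replicate 1. MPP minus LT-HSC of Cdkn2a became -0.22 without LT-HSC replicate 3, -0.000157 without MPP replicate 2 and -0.063 without MPP replicate 3. With each array left out in turn, ST-HSC minus LT-HSC ran from -0.42 to 1.106 for Cdkn1a, from -0.12 to 0.53 for Cdkn1b and from -0.30 to 0.16 for Cdkn2a, MPP minus LT-HSC from -0.22 to 0.23 for Cdkn2a, and MPP minus ST-HSC from -0.0492 to 1.501 for Cdkn1a. Cdkn2a was not tested under the filter at the 50th percentile.

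Counts over all genes moved more. ST-HSC minus LT-HSC called 164 genes (0 to 825 over the alternatives), MPP minus LT-HSC 22 (5 to 615), MPP minus ST-HSC 34 (1 to 525) and the F test 159 (29 to 566). With the replicate block they were 473, 157, 267 and 566, with median centring 104, 5, 1 and 65, and with array weights 61, 9, 525 and 386. ST-HSC minus LT-HSC called 17 without LT-HSC replicate 1 and 825 without LT-HSC replicate 3, and MPP minus LT-HSC called 615 without the latter. The replicate number test called 213, 107 with quantile normalization, 90 with median centring, 59 without ST-HSC replicate 1 and 574 without MPP replicate 1. Array weights were tried for it and did not converge, so no value is given.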
